A study of Homo sapiens with 12 samples.

Results

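The 100 most counted rows of a gene count table were examined, as a set defined by rank alone. Counts were summed over the 12 labelled libraries, names starting with MT- and the rows TALAM1, NEAT1, TSIX, BEST1 and ENSG00000269968 were set aside, and the 100 highest of the remaining rows were taken from the 61255 rows of the table. The summed level chose these rows, so their high level is a description and carries no test. Effects of arsenite and of the line were not part of the choice and were tested.

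The cells were Huh-7.5, an established human hepatocellular carcinoma line, in 3 engineered versions that each carried a form of the peroxidase APEX: APEX-NES, APEX-NLS and APEX-G3BP1, called NES, NLS and G3BP1 here. Every line was sampled after mock treatment and after 45 minutes in 0.5 mM sodium arsenite, with 2 replicates in each of the 6 groups. Total RNA was depleted of ribosomal RNA and sequenced with a directional kit, which keeps the strand. Whether a line is 1 clone, which promoter drives APEX, and whether replicates are separate cultures is not given in the sources used here, so p-values measure the spread between these libraries, which may be technical. APEX itself is expressed in all groups, and no line without it was part of the comparison.

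Both strands of the genome can carry genes, and an antisense RNA is annotated on the strand opposite another gene. A directional library separates the strands only if reads are counted with the orientation the kit produces. Arsenite causes oxidative stress, stops translation initiation and drives messenger RNA into stress granules, of which G3BP1 is a core protein. Hepatocyte-derived cells make large amounts of apolipoproteins, cytoskeletal proteins, translation factors and enzymes of sterol synthesis.

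Libraries held 1090308 to 1461067 counts. Rows starting with MT- took 2.02 to 3.11% of them and the 5 rows set aside by name 7.43 to 8.61%. Levels are given below as CPM, which are counts divided by the TMM-scaled library total, and effects as log2 fold changes with a standard error. A row was called at an adjusted p under 0.05 over the 13108 rows that passed the filter on low counts, and all 100 rows passed it. The rows defining the cell type were low under their own names: ALB, for serum albumin, had 11 to 29 counts in a library and TTR, for transthyretin, 0 to 1. The 14 hepatocyte markers summed to 302 to 532 counts under their own names and to 7207 to 12084 in the rows annotated opposite them. Under their own names, 9 fibroblast and stellate markers summed to 61 to 165 counts with LUM and PDGFRA at 0, 7 endothelial markers to 40 to 100 with VWF, KDR and EMCN at 0, and 10 leukocyte markers to 17 to 38 with MS4A1 and ITGAM among those at 0.

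What the most counted rows stand for was asked first. Of the 97 rows found in GENCODE release 29, 95 (97.94%) shared exonic bases with a gene on the opposite strand, against 6433 of 12414 matched rows that were tested (51.82%). Of the set, 35 rows shared exonic bases with 2 or more opposite genes, and 18 with a gene on their own strand. The opposite gene with the longest exonic overlap is called the partner here. It was protein coding for 86 rows, and 67 rows lay opposite its coding sequence. In 93 of the 95 pairs the partner's own row had fewer counts, in 82 under 10% and in 47 under 1% of the row's count. The median was 91.9 counts in the row for each count of its partner, with a range from 0.492 to 5007.5. The partners include genes usually abundant in such cells, among them tubulins, keratin 18, vimentin, apolipoprotein A1 and TPT1. The setting used for strand in counting is not given in the sources used here, so reads from a row and from its partner cannot be told apart, and each name below is the name of a row.

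The overlap is shown in the sequences of 6 noncoding rows, each a window of 60 bases in the 5′ to 3′ direction of the row's own transcript, read from GENCODE release 29 (GRCh38). Capitals mark bases opposite a coding exon of the partner and lower case marks bases opposite its intron.
ENSG00000285608: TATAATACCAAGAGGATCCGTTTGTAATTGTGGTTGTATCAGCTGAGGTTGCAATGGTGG
ENSG00000265401: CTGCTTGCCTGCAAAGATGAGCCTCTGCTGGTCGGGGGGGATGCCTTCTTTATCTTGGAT
ENSG00000273149: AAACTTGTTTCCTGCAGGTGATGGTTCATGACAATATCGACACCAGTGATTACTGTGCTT
ENSG00000272540: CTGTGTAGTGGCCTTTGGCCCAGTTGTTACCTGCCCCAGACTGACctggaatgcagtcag
ENSG00000234961: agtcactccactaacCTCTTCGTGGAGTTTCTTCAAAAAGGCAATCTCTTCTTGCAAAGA
VIM-AS1: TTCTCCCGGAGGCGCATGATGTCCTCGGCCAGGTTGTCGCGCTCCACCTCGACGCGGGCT
The windows lie at chr14:32154886-32154945, chr17:16382451-16382510, chr13:45340039-45340098, chr6:30723325-30723384, chr10:17233638-17233697 and chr10:17229926-17229985, in the same order, on the minus strand except for ENSG00000273149, which is on the plus strand. The reverse complement of the capitals was found in 4 to 11 annotated transcripts of the partner (ARHGAP5, UBB, TPT1, TUBB and, for the last pair, VIM). In ENSG00000234961 the lower-case part ends in ac, and in ENSG00000272540 it starts with ct, so that the row's exon runs on across the partner's splice sites into its intron.

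One row is named for a microRNA, MIR1282, whose hairpin lies wholly opposite a coding exon of SERF2 at chr15:43793659-43793759. The RefSeq sequences of the hairpin (GRCh38.p14, capitals mark the mature part) and of the mature microRNA (capitals mark the seed, bases 2 to 8) are printed because this short row has the highest level per length of the set.
MIR1282: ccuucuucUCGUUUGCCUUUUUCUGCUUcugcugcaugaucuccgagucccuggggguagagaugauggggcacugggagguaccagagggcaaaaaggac
hsa-miR-1282: uCGUUUGCcuuuuucugcuu
MIR1282 had 22739 counts in 101 exonic bases, or 14488 CPM per kilobase, whereas SERF2 had 1065 counts. Reads that overlap so short a row only in part may be counted in it, so its level per length may be too high. A library of long RNA does not separate a mature microRNA from other RNA at the same bases.

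The row with the most counts was ENSG00000258017, annotated antisense on the plus strand at chr12:49127782-49147869, opposite TUBA1B, which encodes an alpha tubulin. It had 207105 counts, 1.34% of all counts, and 14160 to 21336 in a library, whereas TUBA1B had 9 to 18. Both tubulin rows that followed had the same arrangement: ENSG00000272540, opposite TUBB, had 65223 counts against 200, and ENSG00000258232, opposite TUBA1C, had 52245 against 296. The 3 tubulin rows made up 11.1% of the counts of the set.

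ENSG00000285608 (chr14:32149176-32158008) had 92488 counts and its partner ARHGAP5, a GTPase-activating protein, 1978. ENSG00000265401 (chr17:16382152-16382669), which lies over its whole 461 exonic bases opposite the polyubiquitin gene UBB, had 84502 against 58. Rows 6, 7 and 9 followed the same arrangement. KRT8 (chr12:52897187-52949954), itself a keratin gene and opposite KRT18 over 525 bases, had 68329 counts against 436. ENSG00000273149 (chr13:45340039-45341183), wholly opposite TPT1, the translationally controlled tumour protein, had 66891 against 89. CCDC152 (chr5:42756801-42802360), annotated protein coding and opposite SELENOP, the selenium carrier that liver secretes, had 62616 against 115. Among rows 12 to 15, ENSG00000234961 and VIM-AS1 lie opposite VIM, MMACHC opposite the peroxiredoxin gene PRDX1, and ENSG00000262831 opposite P4HB, a subunit of prolyl hydroxylase and a protein disulfide isomerase.

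**Figure D1:**
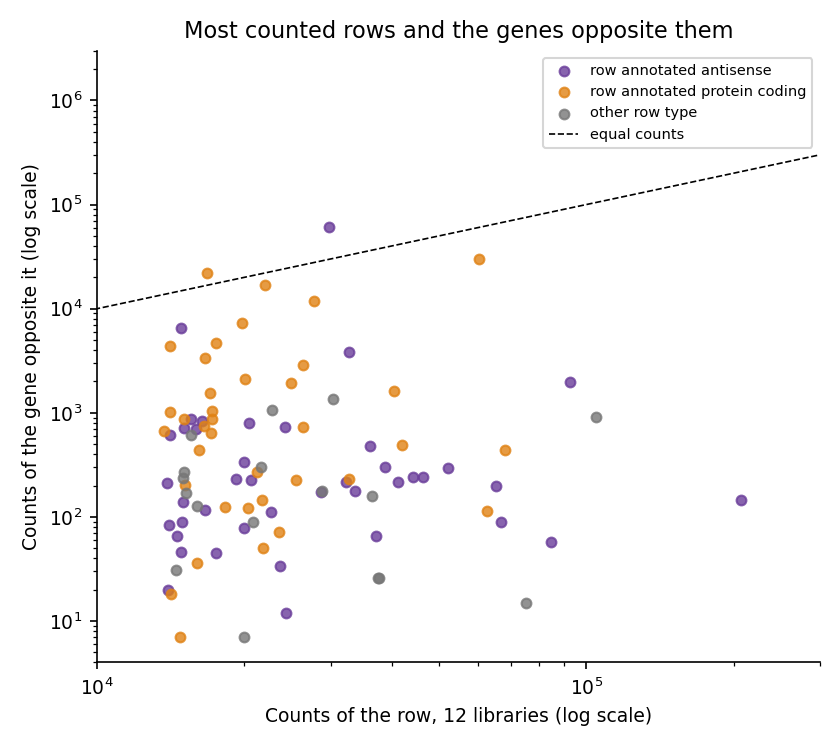
Counts of each of 95 rows, summed over 12 libraries (horizontal, log scale), against the counts of the partner's own row (vertical, log scale), with the dashed line at equal counts. The points lie below the line for 93 rows, whether the row is annotated antisense or protein coding, and above it for 2.

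The set was unevenly filled. Its first row held 7.09% of the counts of the set, the first 10 rows 30.4% and the first 25 rows 50.6%. By annotation, 41 rows were antisense (47.65% of the counts of the set), 39 protein coding (31.94%), 14 other noncoding, 3 pseudogenes and 3 were not matched. Among all tested rows 20.38% were antisense and 48.6% protein coding. Just inside the limit of the ranking stood ENSG00000267062 with 13969 counts, ENSG00000264044 with 13905 and SETD6 with 13690, and just outside it GATC with 13429, DSE with 13322 and DCAF6 with 13237. A ranking on mock libraries alone shared 95 of 100 rows with the set, as did one on arsenite libraries alone, and rankings on either replicate number shared all 100.

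Counts favour long rows, so the order per length was different, though for short rows such as MIR1282 the level per length may be too high. In CPM per kilobase, MIR1282 at 14488 was followed by ENSG00000265401 (opposite UBB) at 11742. ENSG00000269888 (opposite RPL23AP42, its counts uncertain) stood at 9874, ENSG00000258017 (opposite TUBA1B) at 8196 and ENSG00000273149 (opposite TPT1) at 7331. TTN, which encodes the giant muscle protein titin and has 118976 exonic bases, stood at 32.5 although its 60427 counts made it the tenth row, and ENSG00000279159, with 49287 exonic bases opposite MTMR3, stood at 31.6.

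Rows of the set were not all separate places. They fell into 95 places at least 10 kb apart, with 5 pairs of rows closer than that. TTN and TTN-AS1, each the other's partner, had 60427 and 29708 counts, and NR2C2, a nuclear receptor gene, and MRPS25, a mitochondrial ribosomal protein gene, had 16796 and 22035. TTN-AS1 and NR2C2 are thus the 2 rows with fewer counts than their partner. The other 3 pairs lie on the same strand and share a partner. The ratio of ENSG00000234961 to VIM-AS1 was 1.003 to 1.107 over the 12 libraries, that of ENSG00000254452 to ENSG00000245156, both opposite the GTPase gene RAB1B, 1.142 to 1.197, and that of ENSG00000269888 to LINC02067, both opposite the pseudogene RPL23AP42, 0.985 to 1.027. Counts of 4 rows opposite RPL23A or its processed copies (ENSG00000269888, LINC02067, ENSG00000264577 and ENSG00000267135) are uncertain, since the copies are nearly identical and reads can be split among them, and so are those of ENSG00000230021, which lies opposite 5 annotated genes in a region of mitochondrial pseudogenes. Of the matched rows, 2 had no exon opposite: CTSZ, the gene of the lysosomal protease cathepsin Z, with 20207 counts, and AP4S1, the small subunit of the adaptor complex AP-4, with 17678.

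How the share of the library in these rows varied was asked next. The set took 18.15 and 18.25% of the counts in NES mock libraries, 17.50 and 17.50% in NLS mock and 19.23 and 19.31% in G3BP1 mock libraries. After arsenite the NES libraries gave 18.86 and 19.20%, the NLS libraries 18.25 and 18.92% and the G3BP1 libraries 20.08 and 20.74%. Within each line both arsenite libraries were above both mock libraries, while across lines the groups overlapped.

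The share was 18.3 ± 0.797% in mock and 19.3 ± 0.911% in arsenite libraries (SD, n = 6 each), a difference of 1.02 percentage points. In a two-sided exact permutation test with treatment labels exchanged within lines this gave p = 0.00926, the smallest value the 216 arrangements allow. In G3BP1 the difference was 1.14 points, in NLS 1.08 and in NES 0.831. Over both treatments G3BP1 libraries averaged 19.8%, NES libraries 18.6% and NLS libraries 18.0%, and an exact permutation test with line labels exchanged within treatments gave p = 0.00148, or 0.00296 adjusted over both tests of the share. As a percentage of the TMM-scaled library, the treatment difference was 1.69 points and that between G3BP1 and NLS, 1.80 points on plain totals, was 3.44 (exact permutation tests, p = 0.00926 and 0.000741). Among the 50 rows with most counts the line difference was 1.09 points (exact permutation test, p = 0.00148). The line difference lay below the top of the ranking: rows 1 to 10 took 5.29 and 5.41% in G3BP1 mock against 5.46 and 5.48% in NES mock, whereas rows 11 to 100 took 13.9 and 13.9% in G3BP1 mock, 12.7 and 12.8% in NES mock and 12.04 and 12.06% in NLS mock. For G3BP1 mock replicate 1, the library with fewest counts, the 95% Wilson interval of the share was 19.155 to 19.303%, which covers counting error only.

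Other measures moved with the treatment beside this share. The 5 rows set aside took 7.43 to 7.79% in mock and 8.17 to 8.61% in arsenite libraries, and rows starting with MT- 2.38 to 3.11% and 2.02 to 2.56%. With both kinds of row taken out of the total, the difference of the share was 1.25 points (exact permutation test, p = 0.00926). Library totals ran from 1090308 to 1358372 counts in mock and from 1170783 to 1461067 in arsenite libraries, and the 9 fibroblast and stellate markers, of which COL1A1, DCN and PDGFRB had at most 1 count in a library, summed to 61 to 76 and to 114 to 165 counts. ACTA2, a smooth muscle actin gene that is not particular to fibroblasts, had 45 to 84 of these counts in a library and COL3A1, a fibrillar collagen gene, 6 to 70, and 2 of the 3 markers tested were called higher. The part of totals and markers in the result was not tested. Fewer or more cells of a kind and a changed RNA content per cell cannot be told apart in such libraries.

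**Figure D2:**
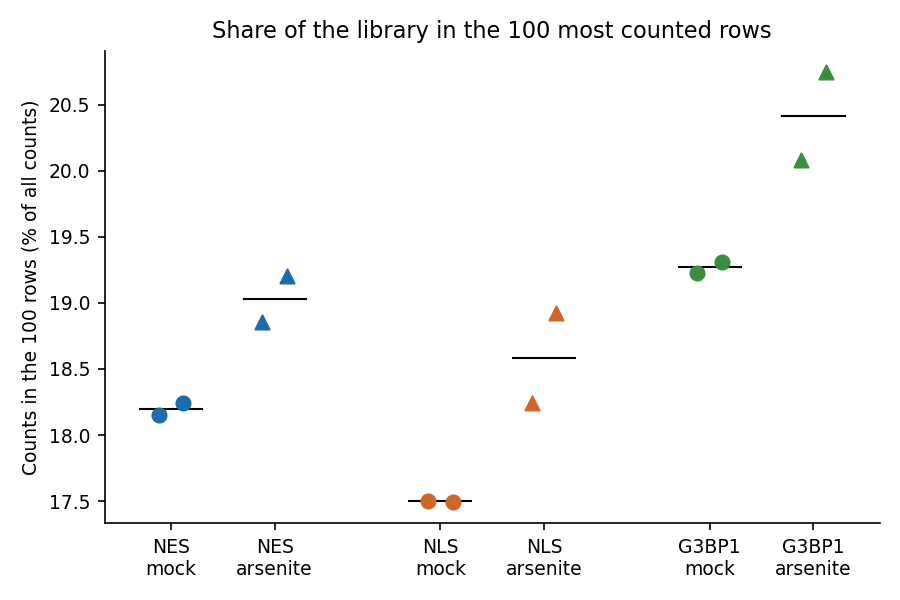
Percent of all counts in the 100 rows in each library, by line (colour) and treatment (circles mock, triangles arsenite), with the group mean as a bar and an axis that does not start at 0. The mock libraries sit below the arsenite libraries of their own line, and G3BP1 libraries sit above those of NES and NLS under the same treatment.

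Arsenite moved most of these rows by small amounts. In the average effect over lines, 73 of the 100 rows were called, 59 higher and 14 lower. Of all tested rows 38% were called (19.4% higher and 18.6% lower). Rows with high counts can be called at smaller effects, so the choice by counts favours calls in the set over those in all tested rows. Of the 50 rows with most counts 80% were called, and of the 200 with most counts 66.5%. The same limit holds for all counts of called rows below. The median log2 fold change was 0.13 in the set and -0.01 over all tested rows, and the range ran from -0.61 for RBM4B to 0.34 for MFSD11. The absolute value was under 0.3 in 96 rows. Of the called rows, 55 were higher and 8 lower in all 6 same-numbered pairs of libraries. With library totals as the only scaling, 49 rows were called higher and 19 lower. For the pairs and for this scaling, the shares of all tested rows were not taken, so these counts describe the set alone.

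**Figure D3:**
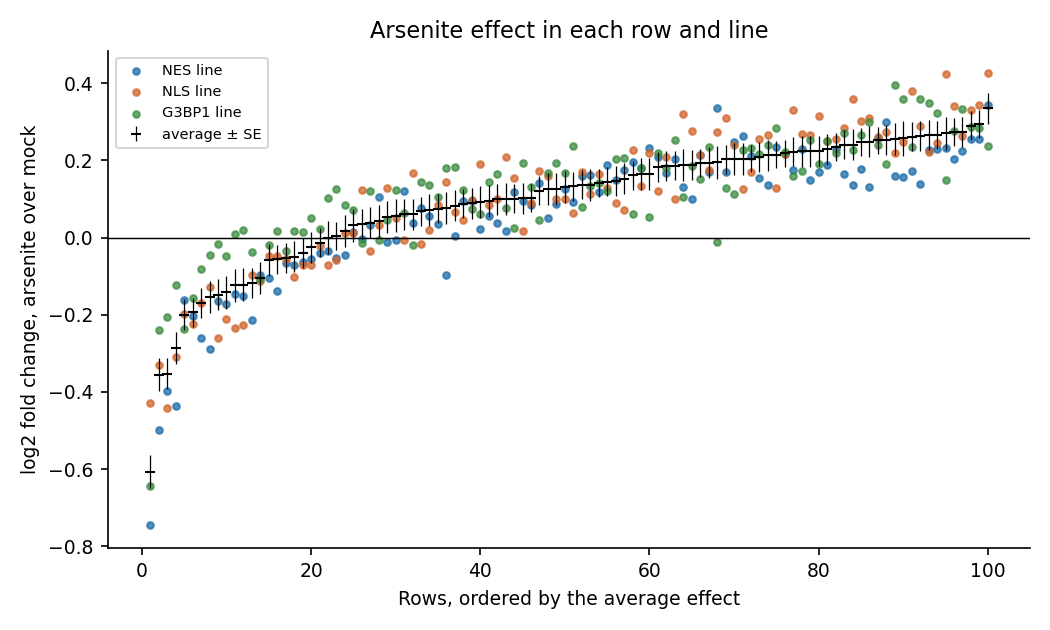
Log2 fold change of arsenite over mock for each of the 100 rows, ordered by the average effect (black dash with its SE), with the 3 line-specific effects as coloured points. Most rows lie between 0 and 0.34, and a few at the left reach -0.61 on average.

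The largest rise was that of MFSD11 (chr17:76735865-76781449), which lies opposite SRSF2, a splicing factor of the SR family. MFSD11 stood at 1168 and 1227 CPM (NES), 1024 and 1046 CPM (NLS) and 1560.5 and 1480.3 CPM (G3BP1) in mock libraries, and at 1478 and 1566 CPM (NES), 1392 and 1389.6 CPM (NLS) and 1716 and 1869.8 CPM (G3BP1) after arsenite. Within each line the 2 groups did not overlap (log2 fold change 0.34 ± 0.04 (SE), adjusted p = 5.61e-12). ENSG00000273149, opposite TPT1, rose from 3871 ± 294 to 4751 ± 431 CPM (mean ± SD, n = 6; log2 fold change 0.29 ± 0.04 (SE), adjusted p = 2.52e-11). TPT1 carries a 5′ terminal oligopyrimidine tract, as do ribosomal protein messages, whose translation follows the growth state of the cell. MRNIP (chr5:179835133-179862173), opposite the autophagy receptor gene SQSTM1, rose from 1547 ± 394 to 1886 ± 464 CPM (log2 fold change 0.29 ± 0.04 (SE), adjusted p = 4.65e-10). MAP3K12, opposite the poly(C)-binding protein gene PCBP2, rose from 1183 ± 75.8 to 1429 ± 54.7 CPM (log2 fold change 0.27 ± 0.04 (SE), adjusted p = 4.32e-09).

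The other rows among the 8 largest rises were KRT8 (opposite KRT18), MIF-AS1 (opposite the cytokine gene MIF), CCDC152 (opposite SELENOP) and PRC1-AS1 (opposite PRC1, a microtubule bundler of cell division), each with a log2 fold change of 0.27. All 8 were higher in 6 of 6 pairs. ENSG00000258017, the row with most counts, stood at 12888 and 13002 CPM (NES), 10927 and 10861 CPM (NLS) and 13239.7 and 13264 CPM (G3BP1) in mock libraries. After arsenite it stood at 14859 and 15238 CPM (NES), 11899 and 13435 CPM (NLS) and 14907 and 15989 CPM (G3BP1), above mock in every line (log2 fold change 0.22 ± 0.03 (SE), adjusted p = 8.85e-08).

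The largest fall was that of RBM4B (chr11:66664998-66677921), the gene of an RNA-binding protein, which lies opposite its paralog RBM4 over 590 exonic bases. RBM4B stood at 1479 and 1425 CPM (NES), 1144 and 1054 CPM (NLS) and 1352 and 1386 CPM (G3BP1) in mock libraries. After arsenite it stood at 905 and 824 CPM (NES), 825 and 809 CPM (NLS) and 929 and 824 CPM (G3BP1). Every arsenite library was below every mock library (log2 fold change -0.61 ± 0.04 (SE), adjusted p = 7e-24). Reads of RBM4 and RBM4B, which are similar in sequence, may be split between the rows.

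ENSG00000258959, a row opposite DYNC1H1, the heavy chain of cytoplasmic dynein, stood at 1055 and 1089 CPM (NES), 1012 and 1066 CPM (NLS) and 1159 and 1252 CPM (G3BP1) in mock libraries and at 758 and 759 CPM (NES), 810.0 and 843 CPM (NLS) and 969 and 1071 CPM (G3BP1) after arsenite (log2 fold change -0.35 ± 0.04 (SE), adjusted p = 7.64e-12). ENSG00000279159, opposite MTMR3, a phosphoinositide phosphatase gene, went from 1751 ± 308 to 1363 ± 146 CPM (mean ± SD, n = 6; log2 fold change -0.35 ± 0.04 (SE), adjusted p = 5.32e-13). SPTBN1-AS2, opposite SPTBN1, a spectrin of the membrane skeleton, went from 1428 ± 295 to 1186 ± 345 CPM (log2 fold change -0.29 ± 0.04 (SE), adjusted p = 1.22e-08). All 3 rows were lower in 6 of 6 pairs and did not overlap within a line, while mock and arsenite libraries pooled over lines overlapped. NR2C2, ABI2 (opposite RAPH1), SGCE (opposite the imprinted gene PEG10) and ENSG00000225339 (opposite NUDT3) completed the 8 largest falls, with log2 fold changes of -0.20, -0.19, -0.17 and -0.15. SGCE was lower in 5 of 6 pairs and the other 3 in 6 of 6.

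**Figure D4:**
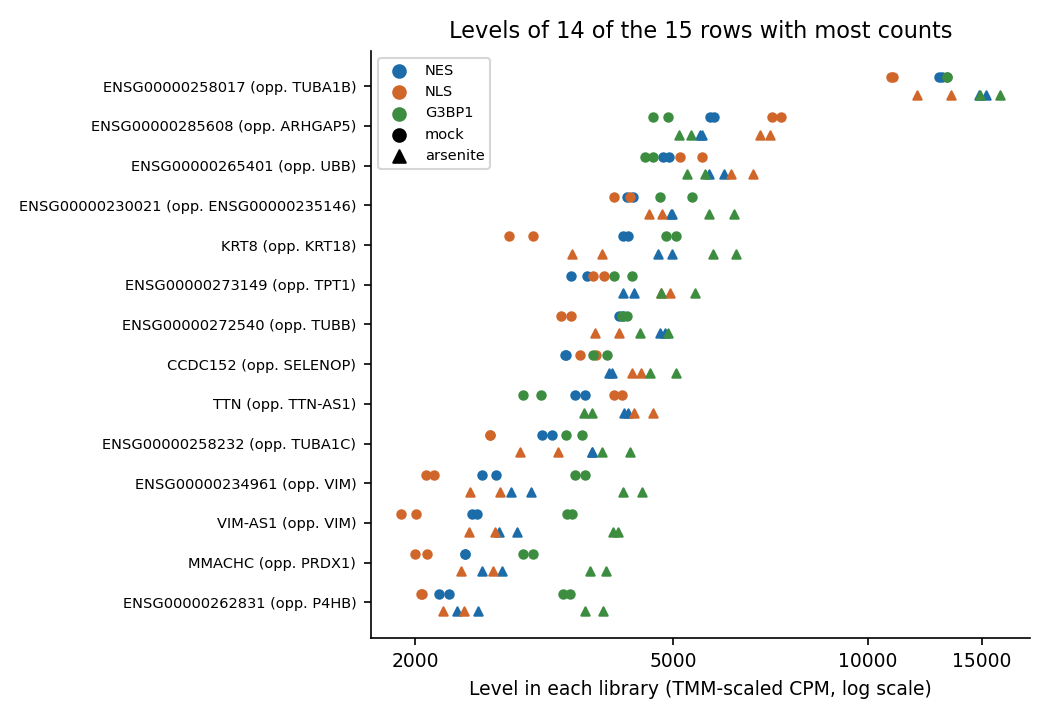
Level of 14 of the 15 rows with most counts in each of the 12 libraries (TMM-scaled CPM, log scale), by line (colour) and treatment (circles mock, triangles arsenite), with the partner in brackets. For ENSG00000258017 the arsenite libraries reach 15989 CPM, and KRT8, ENSG00000234961 and VIM-AS1 separate the lines, within each treatment, from NLS up to G3BP1.

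Rows were also grouped by what the partner does, in groups drawn up after the values were seen. Their counts stand beside the 59 of 100 rows called higher and 14 lower in the set, and 19.4% and 18.6% of all tested rows. Of the 3 tubulin rows all were called higher after arsenite (median log2 fold change 0.22). Of 7 rows opposite genes of intermediate filaments and actin, 6 were called higher and 1 lower, SPTBN1-AS2 (median 0.24). Among them were ENO3 opposite profilin PFN1 at 0.22 and SNX32 opposite cofilin CFL1 at 0.19. This group holds both rows opposite VIM, ENSG00000234961 and VIM-AS1, which lie close together. Of 9 rows opposite ribosomal protein genes, processed copies of RPL23A or translation genes, 7 were called higher (median 0.21), and the 2 that were not are TNS2-AS1, opposite the initiation factor gene EIF4B, at 0.04, and ENSG00000279605, opposite the elongation factor gene EEF1D, at 0.09. Of these 9 rows 3 lie opposite pseudogenes, 2 of them at 1 place, and without these 3 rows 4 of 6 were called higher (median 0.22). Left out of the group were NR2C2, opposite the mitochondrial ribosomal protein gene MRPS25, and RUVBL1, opposite the translation gene EEFSEC. NR2C2 was called lower (-0.20) and RUVBL1 higher (0.17). All 3 rows opposite liver secreted proteins were called higher: CCDC152, APOA1-AS (opposite APOA1, 0.25) and ENSG00000280390 (opposite APOB, 0.19). So were all 4 rows opposite genes of redox defence and ubiquitin: MMACHC (opposite PRDX1, 0.26), ENSG00000267062 (opposite PRDX2, 0.20), MRNIP and ENSG00000265401 (opposite UBB, 0.25). Of 5 rows opposite genes of sterol and lipid synthesis, 2 were called higher: ENSG00000261604 (opposite HMGCS1, 0.13) and TCP1 (a chaperonin subunit gene, opposite ACAT2, 0.23). The median of these 5 rows was 0.07. Other rows opposite genes of lipid synthesis were left out of this group. Of these, ENSG00000259357 (opposite CERS2, 0.15) was called higher. CERS6-AS1 (opposite CERS6, 0.08) and ENSG00000255031 (opposite CHKA, 0.06) were not called.

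Gene lists for pathways of this cell gave the wider setting. Their counts stand beside 59 of 100 rows called higher and 14 lower in the set. Of all tested rows 19.4% were called higher and 18.6% lower. Of 21 genes of a translation factor list, 3 were partners of rows of the set and 1 of these rows was called higher. A list of 27 cytoskeletal genes held the partners of 9 rows, 8 called higher and 1 lower, and named 1 of them, KRT8, itself. Of 36 liver secreted proteins, a list that does not hold SELENOP, 2 were partners, as were 3 of the 14 hepatocyte markers, and 2 of the rows in each case were called higher. Among 27 nuclear long noncoding RNAs 1 was a partner, SNHG29 of LRRC75A, which was called higher. The list of 24 iron and redox genes gave 3 rows, all called higher, and the list of 24 chaperones gave 3, of which 2 were called higher. Neither the 37 small structured RNAs nor the 15 genes of glycolysis, nor the fibroblast, endothelial and leukocyte markers, had a row in the set by name or by partner. Over all rows annotated opposite the cytoskeletal list, 12 of 21 tested rows were called higher and 4 lower. For the redox list these counts were 5 and 0 of 9, for translation factors 6 and 0 of 10, for chaperones 7 and 0 of 9, for liver secreted proteins 3 and 0 of 4 and for glycolysis 2 and 0 of 2. Rows opposite the nuclear long noncoding RNAs gave 5 higher and 10 lower of 29 (median -0.05), and those opposite hepatocyte markers 2 and 0 of 5 (median 0.00). Under their own names, 5 of 21 tested cytoskeletal genes were called higher and 4 lower. These counts were 3 and 0 of 9 for redox, 2 and 1 of 13 for translation factors and 7 and 1 of 12 for chaperones. They were 8 and 1 of 22 for liver secreted proteins, 5 and 0 of 11 for glycolysis, 2 and 4 of 13 for nuclear long noncoding RNAs and 2 and 1 of 10 for hepatocyte markers.

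The effect was set beside properties of the partner. Across the 95 rows with a partner, the average log2 fold change went down with the log10 exonic length of the partner (Pearson's r = -0.388, Spearman's rank correlation = -0.442). This is a description across rows that share the same 12 libraries, so no p is given. Of the 48 rows whose partner has at most the median of 5152 exonic bases, 36 were called higher and 0 lower, with a median of 0.20. Of the 47 rows with a longer partner, 22 were called higher and 13 lower, with a median of 0.08. The split was not made over all tested rows, so whether it is particular to the set was not tested. With the log10 counts of the row itself the effect went up (Pearson's r = 0.29, Spearman's rank correlation = 0.296, 100 rows). For the share of the row opposite partner exons r was -0.063, and for the effect in the partner's own row 0.268 over the 77 partners tested.

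Within single lines fewer rows were called. In NES 44 rows were called, 35 higher and 9 lower, against 20.3% of all tested rows (10.9% higher and 9.39% lower). In NLS there were 54, 43 higher and 11 lower, against 17.8% (9.66% and 8.13%). In G3BP1 there were 45, 41 higher and 4 lower, against 16.3% (9.16% and 7.17%). With library totals as the only scaling the counts were 25 higher and 14 lower in NES and 25 higher and 7 lower in G3BP1. In all 3 lines 23 rows were called, 20 higher and 3 lower, in none 31, and no row was called in opposite directions. The like counts were not taken over all tested rows, so they describe the set alone. These counts rest on 2 libraries a group: the lowest were 23 in NES (without NES mock replicate 1), 26 in NLS (without NLS arsenite replicate 2) and 19 in G3BP1 (without G3BP1 mock replicate 1).

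The difference of the arsenite effect among lines was tested itself. No row of the set was called by edgeR's joint test, which called 0.183% of all tested rows, and 0 were called in G3BP1 against NES and NLS (0.153% of all tested rows) or in NLS against NES (0.0153%). At an unadjusted p under 0.05 there were 16 rows of the set in the joint test, against 8.37% of all tested rows, and 15 and 9 in the other contrasts, while DESeq2 called 0 rows in the joint test with 7 under the unadjusted limit. The smallest p was that of ENSG00000267135, a processed pseudogene opposite RPL23AP2 at chr19:15611623-15611909. It stood at 916 and 1025 CPM (NES), 1102 and 995 CPM (NLS) and 1646 and 1664 CPM (G3BP1) in mock libraries. After arsenite it stood at 1225 and 1225 CPM (NES), 1264 and 1269.6 CPM (NLS) and 1532 and 1750.3 CPM (G3BP1). The groups were apart in NES and NLS and overlapped in G3BP1. Line-specific log2 fold changes were 0.34, 0.27 and -0.01, with an adjusted p of 0.107 in the joint test. Over the alternatives this row was called in the joint test with library totals as the only scaling (adjusted p = 0.0125), without the filter (0.0351), with a replicate block (0.0116), and without G3BP1 arsenite replicate 2 (0.00419) or NLS mock replicate 1 (0.041).

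The other rows with the smallest p in the joint test were SPTBN1-AS2, RBM4B, ENOSF1 (opposite TYMS, thymidylate synthase) and MIF-AS1, none of them called. For NES, NLS and G3BP1 in this order, SPTBN1-AS2 had log2 fold changes of -0.44, -0.31 and -0.12. RBM4B had -0.75, -0.43 and -0.64, and ENOSF1 -0.10, 0.14 and 0.18.

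Differences between the lines without arsenite ran from -0.66 to 0.77 for G3BP1. In G3BP1 mock libraries 76 of the 100 rows were called against the mean of NES and NLS mock, 60 higher and 16 lower, against 18.9% of all tested rows (10.6% higher and 8.27% lower). The median log2 difference was 0.19 in the set and -0.01 over all tested rows. As with arsenite, the choice by counts favours calls in the set, here and in the comparison of NLS with NES. ENSG00000284526 (chr17:76563710-76570544), a row opposite the small nucleolar RNA host gene SNHG16, stood at 1416 and 1383 CPM in G3BP1 mock, 866 and 893 in NES mock and 748 and 777 in NLS mock. Both G3BP1 libraries were above the other 4 (log2 fold change 0.77 ± 0.06 (SE), adjusted p = 2.3e-27).

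ENSG00000267580 (chr19:33299934-33301168), wholly opposite CEBPA, a transcription factor of hepatocytes, stood at 1751 and 1724 CPM in G3BP1, 1095 and 1111 in NES and 979.9 and 1007 in NLS (log2 fold change 0.73 ± 0.05 (SE), adjusted p = 6.07e-26). ENSG00000262831, wholly opposite P4HB, stood at 3474 and 3384 CPM in G3BP1, 2178 and 2258 in NES and 2045 and 2051 in NLS (log2 fold change 0.69 ± 0.05 (SE), adjusted p = 6.73e-26). In both rows the G3BP1 pair was apart from the other 4 libraries. ENSG00000267135, described above, was the remaining one of the 4 largest differences (0.72).

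The row furthest below in G3BP1 was ENSG00000269292 (chr19:46609277-46610779), wholly opposite CALM3, 1 of the calmodulin genes. It stood at 1463 and 1441 CPM in G3BP1, 2195 and 2263 in NES and 2408 and 2311 in NLS, without overlap (log2 fold change -0.66 ± 0.06 (SE), adjusted p = 5.18e-21). ENSG00000279159, ENSG00000285608 and TTN followed at -0.47, -0.43 and -0.34.

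Between NLS and NES mock libraries 41 rows of the set were called, 6 higher in NLS and 35 lower, against 6.93% of all tested rows (3.08% higher and 3.84% lower). The median was -0.13 in the set and -0.01 over all tested rows. With library totals as the only scaling 38 rows were called, 11 higher and 27 lower. Shares of all tested rows were not taken with this scaling, here or in the groups by partner below. Furthest below in NLS were SLC19A1, the folate carrier gene, which lies opposite COL18A1, and MRNIP. SLC19A1 stood at 709 and 724 CPM in NLS and 1048 and 1086 in NES (log2 fold change -0.57 ± 0.07 (SE), adjusted p = 9.4e-13), and MRNIP at 1051 and 1112 in NLS and 1557 and 1658 in NES (log2 fold change -0.57 ± 0.06 (SE), adjusted p = 1.46e-13). KRT8 stood at 2789 and 3041 CPM in NLS and 4192 and 4259 in NES (log2 fold change -0.54 ± 0.06 (SE), adjusted p = 2.06e-13). ABALON, opposite BCL2L1, which encodes an apoptosis regulator, differed by -0.51. In these rows neither NLS library reached the level of an NES library.

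Furthest above in NLS was SNX22, opposite PPIB, a cyclophilin of the endoplasmic reticulum, with 1075 and 1038 CPM in NLS and 805 and 812 in NES (log2 fold change 0.39 ± 0.07 (SE), adjusted p = 2.31e-06). ENSG00000285608, AP4S1 and ATG10 (opposite the ribosomal protein gene RPS23) followed at 0.33, 0.28 and 0.27.

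The groups by partner, drawn up after the values were seen, stood in different places in the 2 comparisons of lines, which share the NES and NLS mock libraries. In G3BP1 their counts stand beside 60 of 100 rows called higher and 16 lower in the set, and 10.6% and 8.27% of all tested rows. In NLS against NES they stand beside 6 of 100 rows called higher and 35 lower, and 3.08% and 3.84% of all tested rows. All 9 rows grouped under ribosomal proteins, copies of RPL23A or translation were called higher in G3BP1 (median 0.48). In NLS against NES 1 of them was called, higher (median 0.11). With library totals as the only scaling these counts were 8 and 2. Without the 3 rows opposite pseudogenes, all 6 remaining rows were called higher in G3BP1 (median 0.36) and 1 was called in NLS against NES (median 0.12). NR2C2, opposite the mitochondrial ribosomal protein gene MRPS25, and RUVBL1, opposite the translation gene EEFSEC, were left out of the group. Both were called higher in G3BP1 (0.49 and 0.59) and neither was called in NLS against NES (-0.14 and -0.04). All 5 rows grouped under sterol and lipid synthesis were called higher in G3BP1 (median 0.40) and lower in NLS than in NES (median -0.30). ENSG00000261604, opposite HMGCS1, the synthase that feeds the mevalonate pathway, stood at 2203 and 2101 CPM (NES), 1788 and 1845 CPM (NLS) and 2919 and 2974 CPM (G3BP1). For RUSC1-AS1, opposite farnesyl diphosphate synthase FDPS, both differences were 0.40 and -0.35. For FADS1, a fatty acid desaturase gene opposite its neighbour FADS2, they were 0.39 and -0.26. Other rows opposite genes of lipid synthesis were left out of this group. ENSG00000259357, opposite CERS2, was called lower in G3BP1 (-0.23) and not called in NLS against NES (0.13). CERS6-AS1, opposite CERS6, was called lower in G3BP1 (-0.15) and not called in NLS against NES (-0.18). ENSG00000255031, opposite CHKA, was called higher in G3BP1 (0.38) and not called in NLS against NES (-0.12).

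The 4 rows opposite genes of protein folding in the endoplasmic reticulum were all called higher in G3BP1 (median 0.59), and 1, SNX22, was called in NLS against NES. ENSG00000267458, opposite calreticulin CALR, and C12orf73, opposite the chaperone gene HSP90B1, had 0.26 and 0.58 in G3BP1. Of the 7 filament and actin rows 6 were called higher in G3BP1 (median 0.50) and all 7 lower in NLS (median -0.31). Both ENSG00000234961 and VIM-AS1, which lie close together opposite VIM, are among these rows. VIM-AS1 stood at 2444 and 2488 CPM (NES), 1901 and 2006 CPM (NLS) and 3433 and 3494 CPM (G3BP1). The 3 tubulin rows were called higher in G3BP1 by small amounts (median 0.16) and lower in NLS (median -0.28), and with library totals as the only scaling 1 of the 3 was called higher in G3BP1.

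**Figure D5:**
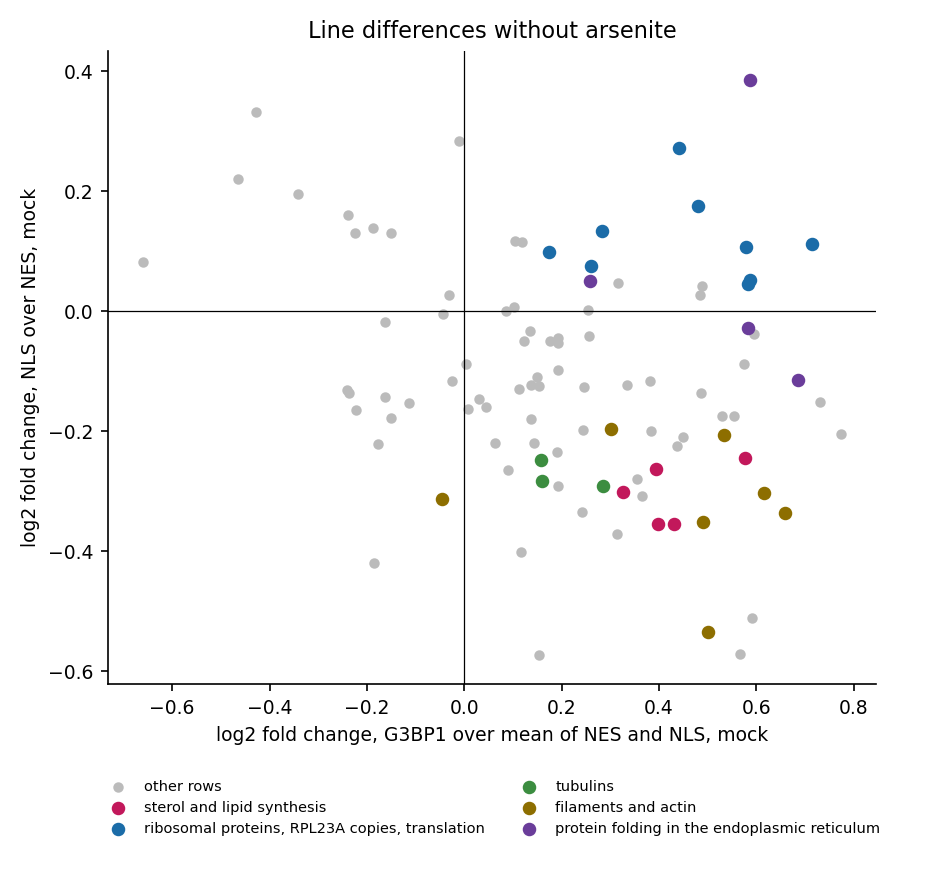
Log2 difference of G3BP1 mock libraries from the mean of NES and NLS mock libraries (horizontal) and of NLS from NES mock libraries (vertical) for each of the 100 rows, with 5 groups by partner in colour. The 9 rows grouped under ribosomal proteins, RPL23A copies or translation (3 opposite pseudogenes) lie to the right at or above 0. Those grouped under sterol and lipid synthesis, filaments and tubulins lie below 0, all but 1 of them to the right. Rows opposite genes of like function, such as NR2C2 (opposite MRPS25), RUVBL1 (opposite EEFSEC) and ENSG00000259357 (opposite CERS2), were not placed in these groups.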

How the data were processed

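Counts per gene were analysed for 12 libraries in 6 groups, with groups and replicate numbers read from the sample titles. The authors deposited 1 table of raw counts, in which 4 of 16 columns match no sample label and were not used. Per the submitters' processing notes, Trim Galore, Subread, featureCounts and edgeR were used with GRCh38.p13. Versions, gene annotation and strand setting are not given in the sources used here.

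Names, types and overlaps came from GENCODE release 29, in which 97 of the 100 rows were found, and microRNA sequences from RefSeq. edgeR 4.0.16 in R 4.3.3 was run on the deposited counts of the whole table, with TMM scaling, filterByExpr (minimum count 10, minimum total 15), the quasi-likelihood F test and Benjamini-Hochberg adjustment over 13108 rows. The average effect used line and treatment as additive terms (8 residual degrees of freedom), and all other contrasts 1 mean per group (6). The standard error is the log2 fold change over the root of F. Counts were simulated for the average effect in 13108 genes, 200 of them changed by a log2 of 1. Of the changed genes 99% were recovered, and 7.91% of the calls were false, which is above the nominal rate. In the set 0 rows changed by a log2 of 1 and 96 changed by less than 0.3, so recovery of changes that small was not tested.

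Rows named with values are the 15 with most counts, the 8 largest rises and falls with arsenite among called rows with the same direction in all lines, the 5 smallest p for a difference among lines, the 4 largest rises and falls in each comparison of mock lines, the 3 rows on either side of the rank limit, and up to 4 by count in each gene list. Of these, 1 row is not reported here. Other named rows are examples of their group or exceptions and were chosen after their values were seen. The rows, lists and groups were chosen with earlier results of these data known. All 6 replicate pairs differed beyond sampling noise in a chi-square test. Same-numbered libraries of a line had deviations from the group means that correlated at -0.0677 to 0.0197 over 6392 rows, and at 0.183 (NES), 0.118 (NLS) and -0.155 (G3BP1) over the 100 rows, so the numbers were not taken as pairs. Same-numbered pairs serve only to count directions. Alternatives were other scalings, filters and denominators, DESeq2 1.42.0, a replicate block, and leaving out each library.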

Additional observations from a re-analysis of the deposited data

How the results depend on the processing

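Of 207 alternative values for the counts of called rows and the shares of counts, 184 were classed as the same as the main value. This class did not require an equal size. It holds the line difference of the share on the TMM-scaled library, 3.44 points against 1.80 on plain totals. It also holds the treatment difference on that scale, 1.69 points against 1.02. Without 1 library at a time the counts of called rows ranged from 67 to 73 (average effect), 23 to 52 (NES), 26 to 54 (NLS), 19 to 49 (G3BP1), 56 to 77 (G3BP1 mock) and 22 to 45 (NLS against NES mock), and from 0 to 1 in the joint test of the difference among lines and in G3BP1 against NES and NLS. The share difference ranged from 0.907 to 1.13 points, and that between the highest and lowest line from 1.63 to 1.97. NES counts were 23, 25 and 27 without NES mock replicate 1, mock replicate 2 or arsenite replicate 2, NLS counts 27 and 26 without NLS mock replicate 2 or arsenite replicate 2, and G3BP1 counts 19 and 22 without G3BP1 mock replicate 1 or arsenite replicate 2. NLS against NES mock gave 24, 24 and 22 without NES mock replicate 1 or 2 or NLS mock replicate 1. These fits have fewer libraries, and a lone library was assumed to vary like the other groups. The shares of all tested rows called in them were not taken, so the counts describe the set alone.

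The joint test called 1 row, ENSG00000267135, with total counts as scaling, without the filter and with a replicate block. In the difference of G3BP1 from NES and NLS the same 1 row was called under these 3 settings and with DESeq2 size factors, and without NES mock replicate 2, NES arsenite replicate 1, NLS mock replicate 1 or G3BP1 arsenite replicate 2. The cause was not tested. With the replicate block the counts were 77 (average), 55, 58 and 55 (NES, NLS, G3BP1), 82 (G3BP1 mock) and 48 (NLS against NES mock). Here too the shares of all tested rows were not taken. Of 41 named rows 36 kept their call in the average effect under all 18 alternatives. Among the exceptions ENSG00000284526 lost it under some, and ENOSF1, ENSG00000267580 and ABALON gained it under some. Over the other denominators, set sizes and rankings the share difference ranged from 0.766 points (ranked on replicate 2, values of replicate 1) to 1.69 (TMM-scaled library), and the line difference from 1.09 (50 rows) to 3.44 (TMM-scaled library). At 793 counts or more in each library, depth does not limit single rows of the set, whereas many partner rows have too few counts for a ratio in 1 library.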

Other observations

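Rows of the set with no match in GENCODE release 29 had no partner to describe them by. ENSG00000287724 had 27560 counts and rose after arsenite (log2 fold change 0.14 ± 0.04 (SE), adjusted p = 0.00125). ENSG00000287934 had 24698 counts and fell (log2 fold change -0.15 ± 0.04 (SE), adjusted p = 0.00163), and ENSG00000287299 had 16867 counts and was not called (log2 fold change -0.03 ± 0.04 (SE), adjusted p = 0.66). NFE2L2, the gene of the oxidant-responsive transcription factor NRF2, was the row of rank 16. It had 40428 counts and stood at 2669 ± 263 CPM in mock and 2571 ± 307 CPM in arsenite libraries (mean ± SD, n = 6; log2 fold change -0.06 ± 0.04 (SE), adjusted p = 0.225). Its partner ENSG00000222043, 1 of 2 opposite genes, overlaps 190 of its 5979 exonic bases. This partner had 1620 counts, so that NFE2L2 is a protein-coding row far above its partner. CTSZ and AP4S1, the matched rows with no exon opposite, had average effects of 0.09 and 0.04, neither called. LRRC75A, opposite the small nucleolar RNA host gene SNHG29, had 23496 counts and rose by 0.19 on the log2 scale (adjusted p = 3.12e-05).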
